A study of Mus musculus with 267 samples.

Results

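Constitutive EGR2 sites were the places in C57 macrophage chromatin where EGR2 was detected before interleukin-4 (IL-4) and at each time sampled after it. A peak of the basal EGR2 list was counted as constitutive when a peak of each of the 1, 6 and 24 h IL-4 lists overlapped it by at least 1 bp. Of the 8437 basal peaks, 6905 (81.8%) met this rule. The lists it drew on held 13562 peaks at 1 h, 13072 at 6 h and 29407 at 24 h, each from a pair of libraries. Members were thus chosen by their EGR2 peaks in C57, so the EGR2 tags and lists of C57 are described without a test.

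Chromatin immunoprecipitation with sequencing (ChIP-seq) maps where a protein or a histone modification sits on DNA. The cells were macrophages that M-CSF had matured from the bone marrow of young adult female mice. Their strains were C57BL/6J (here C57), BALB/cJ (BALB), SPRET/EiJ (SPRET), NOD/ShiLtJ (NOD) and PWK/PhJ (PWK). Cells were left untreated (basal) or given mouse IL-4 at 20 ng/mL for 1, 6 or 24 h in C57 and for 24 h in the other strains. Cells with floxed Egr2 alleles alone (Egr2 fl/fl) or with a Cre recombinase driven by the lysozyme M promoter, which is active in myeloid cells (LyzM-Cre Egr2 fl/fl), were examined untreated and after 24 h of IL-4. Both genotypes carry the floxed alleles, and EGR2 itself was not measured in these cells here. The labels do not say whether replicate libraries came from separate animals or cultures, so p-values measure the spread between libraries.

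EGR2 is a zinc finger transcription factor of the early growth response family, whose members bind GC-rich DNA and are switched on rapidly by growth factors and cytokines. NAB1 and NAB2 are corepressors that bind EGR proteins. In macrophages, IL-4 acts through its receptor and the transcription factor STAT6, while PU.1 and C/EBPβ are lineage factors that keep macrophage enhancers open, and PPARγ is a lipid-sensing nuclear receptor. H3K27ac marks active promoters and enhancers, H3K4me3 marks promoters, H3K4me2 marks both, and RNA Pol II is the transcribing enzyme.

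The EGR letters at named constitutive sites show what the shared sequence looks like in mm10 (GRCm38). Each line gives up to 30 bases from inside a peak, 5′ to 3′ on the strand named, with the EGR letters in capitals. Usp28, P4ha1 and Mtrf1l stand near 3 of the 6 sites with the highest EGR2 tags. Prtg and Stk25 are among the 3 sites with the lowest ratio of 24 h to basal tags, Rps6kc1 among the 3 with the highest, and Egr2 and Egr3 are EGR family genes with a constitutive site nearby.
Usp28, chr9:48985135-48985164, plus strand: ctctaaattgGCGTGGGCGgagccttggga
P4ha1, chr10:59323159-59323188, plus strand: actgcgtcctcGCGTGGGccagcctaggct
Mtrf1l, chr10:5824084-5824113, minus strand: agtgggagtcagGCGTGGGtggtttccacg
Prtg, chr9:72766888-72766917, plus strand: ttgcccggaaGCGTGGGCGgtcgtttgcga
Stk25, chr1:93636160-93636189, minus strand: tctaagggcgcGCGTGGGCGtactccttgt
Rps6kc1, chr1:190903179-190903208, minus strand: tgagtgtgagctGTGGGGGcagagggcctg
Egr2, chr10:67536935-67536964, minus strand: gggcggtccgctGCGTGGGggcgaccagat
Egr3, chr14:70075081-70075110, minus strand: gctggtcagggGCGTGGGCGgcggtgtgag

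The letters searched, on both strands, were a full EGR site (GCGTGGGCG), a core (GCGTGGG, which lies inside the full site) and the inner letters (GTGGGNG). The full site holds the inner letters, and a core does so only together with the bases that follow it. Within the 201 bp around the peak centre, 63.4% of constitutive sites held the inner letters (exact binomial 95% interval 62.3 to 64.6%), against 21.1% (20.8 to 21.4%) of 77943 open chromatin regions of the same length. The core was present in 17.5% (16.6 to 18.4%) against 2.84% (2.72 to 2.96%), and the full site in 3.97% (3.52 to 4.46%) against 0.242% (0.209 to 0.280%). EGR2 sites that appeared first at 1 or 6 h and were still listed at 24 h (7085, "gained early") and sites listed at 24 h alone (14237) held the core in 7.78% (7.17 to 8.43%) and 5.38% (5.02 to 5.77%), intervals that do not overlap with that of constitutive sites. The 1532 basal peaks that missed a later list were closer, with the core in 15.1% (13.4 to 17%) and the full site in 3.52% (2.66 to 4.57%), intervals that overlap with those of constitutive sites, and the inner letters in 53.0% (50.5 to 55.5%). Over 1 kb from a start their full site share was 3.14% (1.90 to 4.85%), against 1.76% (1.34 to 2.27%) of constitutive sites. Among the classes drawn, the plot of EGR letters shows constitutive sites highest on both sides of the 1 kb limit from a gene start. The other classes did not differ in the full site within 1 kb, with 0.818% of sites gained early, 0.786% of sites of 24 h only and 0.805% of open chromatin.

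**Figure D1:**
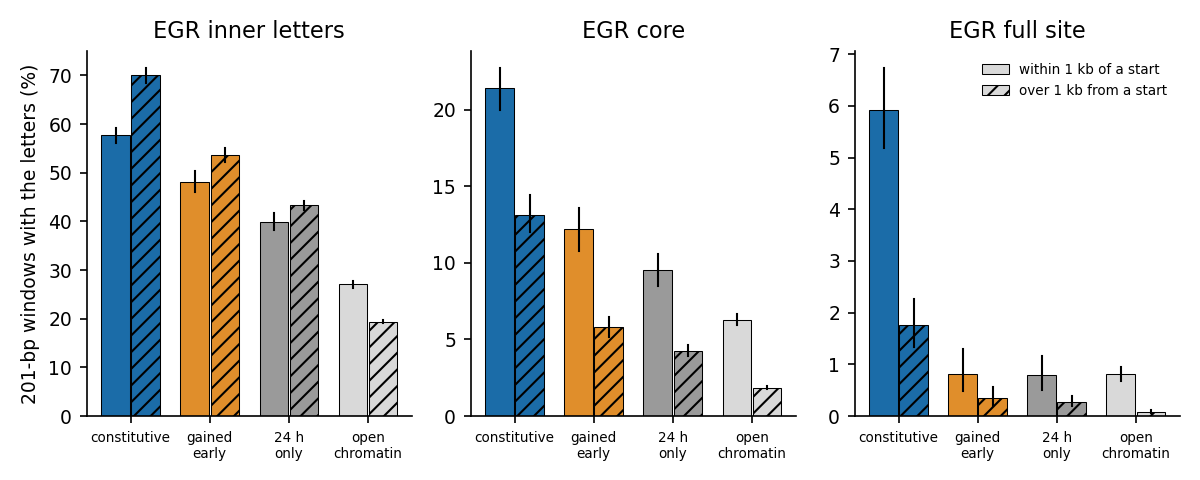
Share of 201 bp windows, in percent, that hold the inner letters, the core or the full EGR site, for constitutive sites, sites gained early, sites of 24 h only and open chromatin, within 1 kb of a gene start (plain bars) and farther away (hatched). Error bars are exact binomial 95% intervals, and the constitutive bars (for the core 21.4% near starts and 13.1% away from them) are the highest of the classes drawn in each panel.

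Away from gene starts, where base composition differs less, 70.0% (68.4 to 71.5%) of constitutive sites held the inner letters against 19.4% (19.1 to 19.7%) of open chromatin regions. The median GC content of these windows was 53.2% and 50.2%. Within 1 kb of a start the shares were 57.7% (56.1 to 59.3%) and 27.1% (26.4 to 27.8%), and the median GC content 68.2% and 64.2%. Of the 1250 constitutive peaks with a core anywhere in the peak, 83.4% had the nearest one within 50 bp of the peak centre, at a median distance of 19 bp. The letters GGGNGNGG, bound by KLF and SP factors and able to overlap EGR letters, were in 67.2% (66 to 68.3%) of constitutive windows and 29.7% (29.4 to 30.0%) of open chromatin.

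Letters of macrophage factors were no more frequent than in open chromatin over all sites. The PU.1 letters GAGGAAGT were in 7.05% (6.46 to 7.68%) of constitutive windows against 8.40% (8.21 to 8.60%), and the AP-1 letters TGANTCA in 10.5% (9.83 to 11.3%) against 16.9% (16.6 to 17.1%). Away from starts the PU.1 letters were in 11.6% (10.5 to 12.8%) against 9.82% (9.58 to 10.1%). A STAT6 motif stood in 4.04% (3.59 to 4.53%) against 6.06% (5.90 to 6.23%), while sites gained early held it in 9.88% (9.20 to 10.6%). The C/EBP letters TTNCNNAA were in 27.8% (26.7 to 28.9%) against 36.8% (36.5 to 37.1%). Over 1 kb from a start the gaps were small, with the C/EBP letters in 41.5% (39.8 to 43.2%) against 41.8% (41.4 to 42.2%). The AP-1 letters were there in 18.8% (17.4 to 20.2%) against 20.2% (19.9 to 20.5%). Within 1 kb both were less frequent at constitutive sites, with C/EBP intervals of 14.5 to 16.9% against 18.4 to 19.6%. The AP-1 intervals there were 2.72 to 3.9% against 4.74 to 5.4%. At the 2073 constitutive peaks with no EGR letters, among them the peaks with the highest tags near Faf1 and Arpc5, the absence of these letters says nothing about EGR2 itself.

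EGR2 tags went with the core and the full site. Tags are reads scaled to 10000000 per library, and the mean over the 8 C57 libraries had a median of 114.4 at 277 peaks with the full site (interquartile range 68.9 to 180.5) and of 80.8 at peaks without EGR letters (57.4 to 111.4). It was 93.5 (63.2 to 139.1) at peaks with a core alone. At the 3582 peaks with the inner letters but no core it was 85.1 (61.1 to 126.5), close to that of peaks without letters. A readout the rule did not use, EGR2 peaks in the other 4 strains, followed the same order: 72.6% (66.9 to 77.7%) of peaks with the full site were in all 8 lists of BALB, NOD, PWK and SPRET, against 50.6% (47.4 to 53.8%) with a core alone and 38.7% (36.6 to 40.9%) without letters. Peaks with the inner letters but no core stood at 39.8% (38.2 to 41.4%), an interval that overlaps with that of peaks without letters. PU.1 peaks went the other way, with 49.5% (43.4 to 55.5%) of peaks with the full site and 72.5% (70.5 to 74.4%) of those without letters in the basal PU.1 list. Peaks with the full site were also closer to gene starts, 79.1% within 1 kb against 60.0% without letters.

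Several EGR2 libraries stood apart from their replicate. Across the 6905 sites, basal replicate 1 correlated best with 24 h replicate 1 (Spearman's rho 0.890) and less with basal replicate 2 (0.760), and 1 h replicate 1 correlated best with 6 h replicate 1 (0.813) and less with 1 h replicate 2 (0.725). Constitutive sites took 2.97% of the tags of 1 h replicate 1 and 6.94% of 1 h replicate 2. These are correlations across sites that share libraries and peak calls, and sites are not replicates.

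The median number of EGR2 tags per constitutive site was 66.5 and 87.3 in the basal libraries, 33.4 and 77.2 at 1 h, 78.6 and 104 at 6 h, and 132 and 90.2 at 24 h. Both 24 h medians lay above both basal ones, by little in replicate 2, while the 1 h and 6 h medians overlapped with basal. The lowest median was in 1 h replicate 1 and the highest in 24 h replicate 1. Sites of 24 h only had basal medians of 13.6 and 14.8 and 24 h medians of 26.9 and 21.1, so constitutive sites held several times their tags also at 24 h. The median log2 ratio to basal was -0.45 at 1 h, 0.25 at 6 h and 0.52 at 24 h, close to the -0.44, 0.24 and 0.65 over all 30675 EGR2 sites. It was 0.02 at 1 h without replicate 1 of that time and -1.20 without replicate 2, and it turned to -0.13 at 24 h when libraries were scaled by the median ratio over sites.

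**Figure D2:**
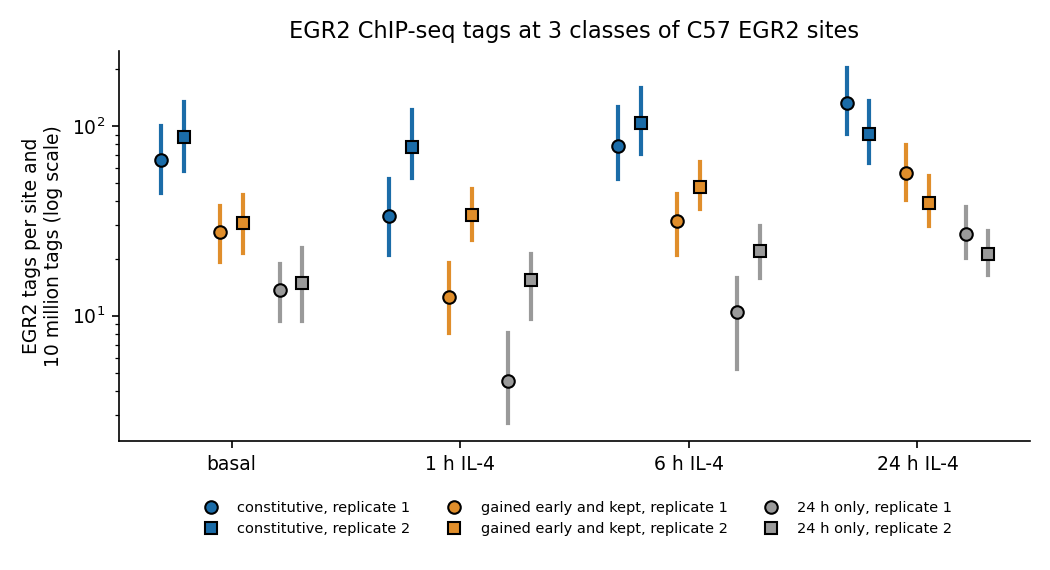
EGR2 tags per site and 10000000 tags (log axis) in each of the 8 C57 EGR2 libraries, for constitutive sites, sites gained early and sites of 24 h only. Points are medians over sites, bars the interquartile range, and circles and squares replicates 1 and 2, with constitutive medians between 33.4 and 132.

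Few single sites differed 2.5-fold from basal. Between basal and 24 h, 114 of the 6905 sites had group means at least 2.5-fold higher and 0 were 2.5-fold lower, against 11% and 0.0% of all EGR2 sites. At 1 h the counts were 7 higher and 132 lower (1.45% and 6.31% of all sites), and at 6 h 195 higher and 15 lower (6.95% and 1.04%). Basal peaks that missed a later list had lower tags, with basal medians of 33.2 and 52.4 at 1464 of the 1532 sites that the table held. At the edge of the rule, 26 members had an overlap of at most 50 bp with one of the later peaks, and 17 peaks outside had a peak of the missing list within 100 bp.

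The site with the highest tags, 46 bp from the start of Faf1 (a ubiquitin-binding adaptor), had 788 and 1264 tags in the basal libraries, 456 and 1198 at 1 h, 1454 and 1240 at 6 h and 1309 and 1128 at 24 h. The Usp28 site (a deubiquitinase, -259 bp, a minus sign marking upstream) had 458 and 1158 tags at basal and 915 and 1054 at 24 h. Next in tags was the site between Nemp1 (-149 bp) and Nab2 (-285 bp), with 506 and 1039 at basal, 451 and 718 at 1 h, 1262 and 918 at 6 h and 854 and 641 at 24 h. Arpc5 (an actin nucleation subunit, -9 bp), P4ha1 (a collagen prolyl hydroxylase, -100 bp) and Mtrf1l (a mitochondrial release factor, -186 bp) completed the 6 highest, with basal means of 862, 631 and 639 tags. At each of the 6 the basal and 24 h libraries overlapped, and all 6 were in the 8 lists of the other strains.

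The sites with the highest 24 h to basal ratios had low basal tags. At Socs1, which encodes an inhibitor of JAK-STAT signalling, the site at -644 bp had 24.8 and 43.0 tags at basal, 112 and 368 at 1 h, 203 and 480 at 6 h and 203 and 298 at 24 h. A second constitutive site at -47 bp of the same gene had 125 and 207 at basal and 361 and 247 at 24 h. The intronic sites in Pigp (8002 bp) and Rps6kc1 (8546 bp) had basal tags of 27.2 and 34.9 and of 12.6 and 37.6, and 24 h tags of 242 and 163 and of 101 and 133. At the other end stood Prtg (-39971 bp; 115 and 223 at basal, 93.8 and 97.0 at 24 h), Adamts4 (-1289 bp; ratio 0.574) and Stk25 (-435 bp; ratio 0.600), where the 24 h libraries lay below both basal ones at Prtg and overlapped with them at the other two.

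EGR2 stood at constitutive sites near its own gene family. The site nearest Egr2, at -1007 bp, had 34.2 and 76.6 tags at basal and 143 and 134 at 6 h. Egr3 had one at -2096 bp (177 and 227 at basal) and Egr1 one at -624 bp (134 and 265 at basal, 576 and 353 at 24 h, the 24 h libraries above both basal ones). The Nab2 site is the one named above with Nemp1, whereas the site nearest Nab1 lay 19481 bp inside the gene with 25.8 and 33.6 tags. Egr4 had none within 50 kb, the nearest being at the start of Cct7, 62106 bp away.

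Constitutive sites were mostly at gene starts. Of 6905 sites, 53.1% (51.9 to 54.3%) lay within 1 kb of the start of a protein-coding gene, against 31.1% (30.0 to 32.1%) of sites gained early, 21.4% (20.8 to 22.1%) of sites of 24 h only and 22% (21.7 to 22.3%) of open chromatin. Basal peaks that missed a later list stood higher still, at 60.4% (57.9 to 62.9%), so nearness to starts was not particular to the constitutive ones among basal peaks. A further 25.8% were in introns and 18.1% between genes, and 10.3% were over 50 kb from any start. Near starts the median offset was -29 bp, and 63.5% of these sites were upstream. They belonged to 3423 genes when each site was given to its nearest start.

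Counting each gene with a site within 1 kb of any of its starts, 17.3% of 21840 protein-coding genes had one, and 29.5% of the 12820 whose start lay in open chromatin. The KLF and SP zinc finger factors stood highest among the lists examined, with 13 of 14 (Klf11 lacked one). Klf3 had 322 and 935 tags at basal and Klf10 456 and 622. Of AP-1 and immediate early genes 13 of 20 had a site, among them Jun, Junb, Jund, Atf3 and the MAP kinase phosphatases Dusp1, Dusp2, Dusp4 and Dusp6, but not Fos or Myc. Of IL-4 receptor and JAK-STAT genes 9 of 18 had one, and these were inhibitors in the main (Socs1, Socs2, Socs3, Cish, Ptpn1, Ptpn2 and Ptpn6, with Tyk2 and Stat5a), while Il4ra, Jak1 and Stat6 had none. Within 50 kb Il4ra, Jak1, Stat6, Fos and Myc each had a site.

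NF-kB and inflammatory genes had 13 of 27, with all 5 Rel family genes (Nfkb1, Nfkb2, Rel, Rela and Relb), the IκB genes Nfkbia, Nfkbib, Nfkbie and Nfkbiz, and Tnf, but without Il1b, Il6 or the chemokine genes. Within 50 kb Il1b and the chemokine genes of the list had a site, and Il6 had none. Lysosome genes had 10 of 23 (Ctsd 451 and 492 tags at basal), cell cycle genes 9 of 22, macrophage identity genes 10 of 25 (Cebpa 523 and 714), cytosolic ribosomal protein genes 14 of 36 and lipid and nuclear receptor genes 8 of 23. Genes of alternative activation had 3 of 26, namely Tfrc, Ptgs1 and Matk, and 3 of the 19 with a start in open chromatin. Arg1, Retnla, Chil3, Mrc1, Ccl17 and Ccl24, classical IL-4 targets, had no constitutive site within 1 kb. Within 50 kb Arg1, Ccl17 and Ccl24 had one, and Retnla, Chil3 and Mrc1 had none. Of the whole list 11 of 26 (42.3%) had a site within 50 kb, beside 42.7% of all protein-coding genes.

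Most constitutive sites were shared with a macrophage lineage factor. The basal PU.1 list overlapped 68.5% (67.4 to 69.6%) of them, against 54.3% (53.9 to 54.6%) of open chromatin windows of the median peak width, and the 24 h list 71.5% (70.5 to 72.6%) against 57.1%. Both lists held 62.9% of the sites and neither held 22.8%. C/EBPβ was listed at 22.6% (21.6 to 23.6%) at basal and 40.1% (38.9 to 41.2%) at 24 h, against 17.8% and 32.8% of open chromatin. These lists grew from 18043 to 37499 peaks for C/EBPβ between basal and 24 h.

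STAT6 peaks were listed at 52.5% (51.3 to 53.7%) of constitutive sites at basal, 40.7% (39.5 to 41.8%) at 1 h, 52.6% (51.4 to 53.8%) at 6 h and 67.3% (66.2 to 68.4%) at 24 h. The same shares of open chromatin were 33%, 26.8%, 27.9% and 40.7%, and the lists held 30589, 24376, 23884 and 39537 peaks. PPARγ went from 10.1% (9.37 to 10.8%) of sites at basal to 48.7% (47.5 to 49.9%) at 24 h, with lists of 7627 and 39088 peaks and open chromatin at 6.91% and 32.1%. Of the 6905 sites, 39.6% were in the PPARγ list at 24 h alone, 9.15% at both times and 0.912% at basal alone. The plot of co-binding shows constitutive sites and sites gained early close together and above open chromatin in each list.

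**Figure D3:**
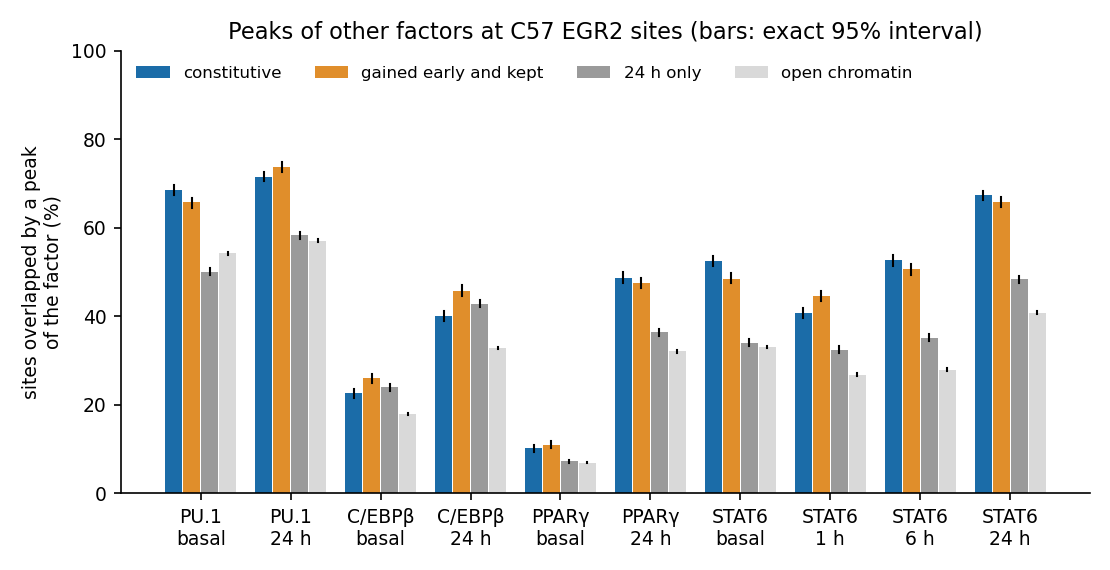
Share of sites, in percent, overlapped by at least 1 bp by a peak of PU.1, C/EBPβ, PPARγ or STAT6 in C57 at the time named, for constitutive sites, sites gained early, sites of 24 h only and open chromatin windows. Error bars are exact binomial 95% intervals, and constitutive sites range from 10.1% (PPARγ, basal) to 71.5% (PU.1, 24 h).

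Co-binding was more frequent away from starts. At 24 h STAT6 was listed at 83.3% (81.9 to 84.5%) of constitutive sites over 1 kb from a start and at 53.2% (51.5 to 54.8%) of those within 1 kb, against 43.6% and 30.5% of open chromatin. PU.1 was at 82.2% (80.8 to 83.5%) and 62.2% (60.6 to 63.7%), PPARγ at 66.1% (64.5 to 67.7%) and 33.3% (31.8 to 34.9%), and C/EBPβ at 58.3% (56.6 to 60.0%) and 24.0% (22.6 to 25.4%). Open chromatin also had higher 24 h shares away from starts, with 58.7% and 51.6% for PU.1, 34.8% and 22.2% for PPARγ, and 36.4% and 20.2% for C/EBPβ. Sites with 0 of the 4 factors made up 21.8% at basal and 13.3% at 24 h, and sites with 4 of 4 made up 3.92% and 22.9%. Partner letters followed the lists: the C/EBP letters were in 52.4% of constitutive peaks in the 24 h C/EBPβ list and 17% of the others, and the PU.1 letters in 10.1% and 1.17%.

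In the other strains EGR2 was listed at most of the same places. BALB lists held 97.3% (96.9 to 97.7%) of constitutive sites at basal and 96.9% (96.5 to 97.3%) at 24 h, and NOD lists 95.8% (95.3 to 96.2%) and 92.4% (91.7 to 93.0%). SPRET lists held 75.2% (74.2 to 76.3%) at basal and 91.2% (90.5 to 91.9%) at 24 h. PWK lists held 52.8% (51.6 to 53.9%) and 84.8% (83.9 to 85.6%). The PWK basal list was the shortest, with 6201 peaks against 12301 in SPRET, 25341 in NOD and 28842 in BALB, so a missing peak there is not evidence of missing EGR2.

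For comparison, 54.2% (53.4 to 55.0%) of sites of 24 h only were in the BALB list at 24 h and 14.2% (13.6 to 14.8%) in that of PWK. Sites gained early stood higher, at 83.8% (82.9 to 84.6%) in BALB and 43.5% (42.4 to 44.7%) in PWK. Of basal peaks that missed a later list, 85.6% (83.7 to 87.3%) were in the BALB list, and the interval for PWK was 63.6 to 68.4%. Each of these shares lay below that of constitutive sites, but sharing was not particular to them. Of the constitutive sites, 81.9% were in at least 1 list of each of the 4 other strains, 42.3% were in all 8 lists and 36 sites were in none. Sharing went with EGR2 tags in C57: among the 1727 sites with the lowest mean tags (25.2 to 60.3) 15.3% were in all 8 lists, among the 1726 with the highest (125.9 to 1104.6) 77.1%. The 2922 sites of all 8 lists were also nearer to starts, 65.7% within 1 kb.

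H3K27ac, Pol II and the H3K4 marks were then compared over time at these sites. They were counted in 1000 bp around open chromatin centres, and 6619 of the 6905 sites lay within 500 bp of a centre, giving 6603 member regions. In bulk cells, less mark per cell and fewer cells with the mark cannot be told apart. As a check of the cells, the starts of all 10 macrophage markers (Csf1r, Spi1, Adgre1 and others) had 181.9 to 542.2 basal H3K4me3 tags, none of 6 T cell markers had an open region at its start, and of B cell, neutrophil, dendritic cell, fibroblast and erythroid markers 5 had 16 or more tags (16 to 285.6), namely Flt3, Zbtb46, Col1a1, Pdgfra and Epor, none with more than 2.1 H3K27ac tags. By H3K27ac, the B cell marker Ms4a1 had 88.8 and the neutrophil marker Camp 16.3 basal tags, with 1.3 and 2.1 in H3K4me3.

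Member regions were well marked already at basal. Their median H3K27ac was 121 and 107 tags in the basal libraries, against 19 and 19.2 over all 77955 regions. It was 162 and 124 within 1 kb of a start and 71.2 and 81.3 farther away. Regions of sites gained early, at any place, had 69.9 and 68.5, so this marking was not particular to constitutive sites. Pol II medians of member regions were 69.9, 88.3, 63.2 and 56.7, against 15, 14.4, 12.9 and 11.1 over all regions. H3K4me3 divided them by place, with 475 and 466 tags within 1 kb of a start and 8.01 and 9.26 farther away. Across the 6619 sites, basal H3K27ac and basal EGR2 tags were only weakly related (Spearman's rho 0.17, sites not being replicates).

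One hour of IL-4 went with lower H3K27ac at many of these regions in the deposited scale, and the size of this depended on the scale. By limma over all regions, 679 of 6603 member regions were lower at 1 h and 20 higher at an adjusted p under 0.05, which is 10.3% and 0.303%, beside 8.36% lower and 1.37% higher among all regions. The median log2 change was -1.11 at members and -0.63 over all regions. Among regions that passed the filter of 16 tags it was -1.19 at members and -1.15 over all, so the gap was small there. By place it was -1.12 against -0.99 within 1 kb of a start and -1.1 against -0.46 farther away. With median-ratio scaling, which brings the median of all regions to -0.09, members stood at -0.52 and the calls were 138 lower and 35 higher. On recovered reads edgeR called 73 lower and 50 higher (0.797% and 1.97% of all regions), and DESeq2 253 and 119 (2.69% and 3.5%). In the limma calls, regions within 1 kb of a start had 191 lower and 6 higher (5.39% and 0.402% of all such regions), and regions farther away 488 and 14 (9.19% and 1.64%).

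In 1 h replicate 2, 20.5% of tags fell in open regions, against 44% in 1 h replicate 1 and 69.7% and 63.8% in the basal pair. The part of these shares in the 1 h result was not tested. With 1 h replicate 1 left out, limma called 3732 regions lower and 4 higher, and with 1 h replicate 2 left out, 422 and 85. Leaving out basal replicate 1 gave 199 and 10, and leaving out basal replicate 2 gave 4 and 2. The fit shares its spread over all groups, and the calls were 90 and 3 or 91 and 3 when the first or the other 6 h library was left out, and 436 and 16 or 435 and 17 for the 24 h libraries. The 679 lower regions had a median of 233 basal and 51.5 1 h tags, and 86.6% (83.8 to 89.1%) of their sites were in the basal PU.1 list, against 68.0% (66.8 to 69.2%) of sites at regions not called. Of the same sites 28.3% and 56.6% lay within 1 kb of a start, and the part of place or of basal H3K27ac in the PU.1 shares was not tested.

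The largest falls were at Rassf2, Maf and Rnf150. At the start of Rassf2, a Ras association domain protein, H3K27ac was 367 and 464 tags at basal and 24.0 and 40.3 at 1 h, then 67.0 and 92.5 at 6 h and 90.0 and 127 at 24 h. The 1 h libraries lay below both basal ones (log2 change -3.69 ± 0.55 SE, limma adjusted p = 0.00506), and this call held with median-ratio scaling (-3.09, adjusted p = 0.00924). A region 212553 bp from Maf, which encodes a macrophage transcription factor, had 76.7 and 235 tags at basal and 12.4 and 8.61 at 1 h (-3.58 ± 0.63, limma adjusted p = 0.00925). At the start of Rnf150 it was 188 and 245 against 22.4 and 14.1 (-3.52 ± 0.55, limma adjusted p = 0.0058). The Rassf2 and Rnf150 calls held in 8 of 8 fits that each left out 1 library, and the Maf call in 7 of 8 (adjusted p = 0.0957 by limma without basal replicate 2).

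The largest rises at 1 h were from low levels. The intronic region of Rmi2 (3629 bp) had 10.9 and 12.8 tags at basal and 166 and 54.7 at 1 h, 195 and 222 at 6 h and 107 and 154 at 24 h (1 h log2 change 2.91 ± 0.59, limma adjusted p = 0.0134). Regions at -88268 bp from Ddhd1 and -58637 bp from Met, a receptor tyrosine kinase gene, had at most 2.04 tags in either basal library and 21.6 and 5.51 and 27.1 and 5.51 at 1 h (limma adjusted p = 0.0192 and 0.0228, called in 6 and 4 of 8 fits that each left out 1 library). EGR2 was already there, with 102 and 214 basal tags at the Ddhd1 site and 114 and 118 at the Met site.

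At 6 h, 117 member regions were higher in H3K27ac and 84 lower (1.77% and 1.27%), beside 2.67% and 2.46% of all regions. On recovered reads edgeR called 161 and 76 (2.98% and 1.62% of all) and DESeq2 300 and 179 (4.72% and 3.77%). The largest rises were at an intronic region of Per2 (21505 bp), a circadian clock gene, with 0.680 and 2.14 tags at basal and 77.8 and 52.9 at 6 h (4.83 ± 0.81, limma adjusted p = 0.00291), at -63796 bp from Otos, and at -83524 bp from Cyp1b1 (0.680 and 2.14 against 69.3 and 49.9). By 24 h the Per2 region stood at 15.3 and 30.9 tags. Falls were largest at Chn2 (-101825 bp; 33.9 and 148 at basal, 3.85 and 3.04 at 6 h, and 27.2 and 108 at 24 h), at C4b, a complement gene (-2933 bp; 107 and 167 against 13.9 and 11), and at Tle3, a corepressor gene (-120475 bp; 40.7 and 80.6 against 5.39 and 4.26). When either 6 h library was dropped limma called 3 member regions, and when basal replicate 2 was dropped, 55. Dropping 1 h replicate 1 gave 240 higher and 283 lower, and dropping 1 h replicate 2 gave 241 and 268, so that lower calls then outnumbered higher ones. The calls at Per2, Cyp1b1 and C4b held in 6 of 8 fits that each left out 1 library, that at Otos in 7 and those at Chn2 and Tle3 in 5.

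At 24 h, 64 member regions were higher and 9 lower (0.969% and 0.136%), beside 1.13% and 0.327% of all regions. Of the 64, 57 lay over 1 kb from a start, with 6 of the 9 lower (1.36% and 0.367% of all such regions), and 7 and 3 within 1 kb (0.309% and 0.187%). On recovered reads edgeR called 113 higher and 13 lower (1.6% and 0.228% of all regions) and DESeq2 267 and 62 (3.15% and 1.3%). By limma 19 calls were left without 24 h replicate 2, and 29 without 6 h replicate 1 or 2. Leaving out 1 h replicate 1 gave 161 higher and 213 lower, and leaving out 1 h replicate 2 gave 161 and 192, so the split of directions depended on those libraries. The 1, 6 and 24 h comparisons share the basal libraries. The plot of calls by mark and time gives members and all regions side by side.

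**Figure D4:**
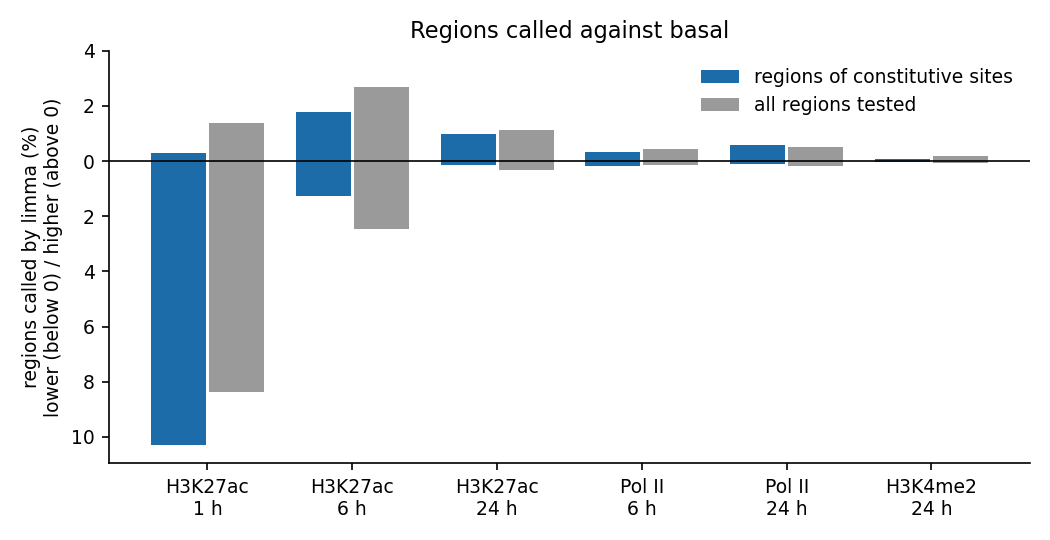
Percent of regions called by limma at an adjusted p under 0.05 against basal in C57, higher above 0 and lower below 0, for regions of constitutive sites and for all regions tested, by mark and time. The tallest bars are H3K27ac at 1 h, lower in 10.3% of member regions and 8.36% of all.

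The region at -63796 bp from Otos (chr1:92712137-92713137) had the largest 24 h rise. H3K27ac was 3.39 and 2.85 tags at basal, 39.4 and 3.79 at 1 h, 74.7 and 156 at 6 h and 112 and 152 at 24 h, with no overlap between basal and 24 h (log2 change 5.00 ± 0.76, limma adjusted p = 0.0022). The rise was called in 8 of 8 fits that each left out 1 library. EGR2 tags at the same site were 93.2 and 96.7 at basal and 261 and 151 at 24 h. A second constitutive site at -69558 bp of the same gene went from 2.04 and 5.70 to 96.8 and 119 H3K27ac tags (4.58 ± 0.77, limma adjusted p = 0.00501), with 169 and 277 EGR2 tags at basal. The Hook1 region at -54103 bp (a microtubule adaptor gene) went from 7.46 and 5.70 to 188 and 188 (4.65 ± 0.75, limma adjusted p = 0.00361), with 128 and 79.2 EGR2 tags at basal.

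The named falls at 24 h were smaller. At the start of Nr4a1, an orphan nuclear receptor gene of the immediate early class, H3K27ac was 16.3 and 27.8 tags at basal, 18.6 and 13.4 at 1 h, 11.6 and 15.8 at 6 h and 0.850 and 2.63 at 24 h (-3.11 ± 0.61, limma adjusted p = 0.0144, and 0.103 without 24 h replicate 1), while EGR2 was 39.3 and 71.2 at basal and 114 and 113 at 24 h. In Ppcdc (18715 bp) it was 187 and 277 at basal and between 25.6 and 30.6 in all 6 later libraries (-3.00 ± 0.53 at 24 h, limma adjusted p = 0.00701). In Art3 (-12659 bp) it was 362 and 231 against 34.8 and 49.2 (-2.77 ± 0.55, limma adjusted p = 0.0154, called in 3 of 8 fits that each left out 1 library). The plot of EGR2 and H3K27ac by library shows the 6 regions.

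**Figure D5:**
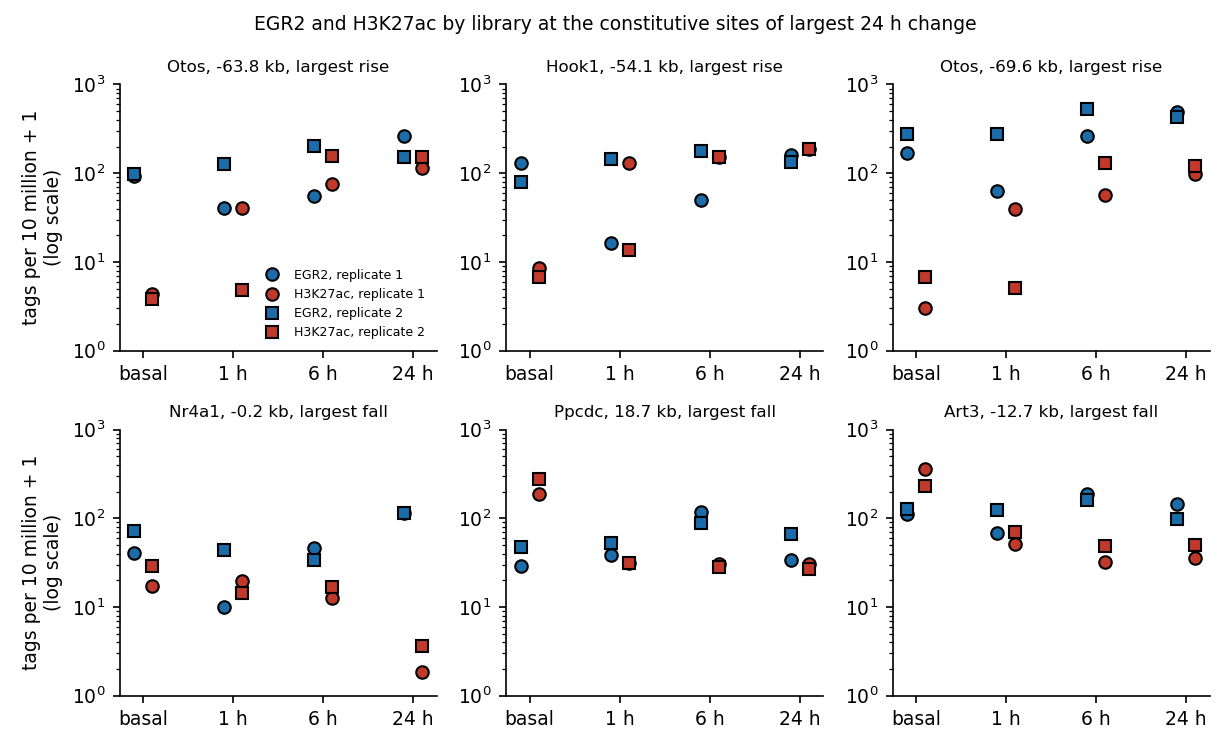
EGR2 (blue) and H3K27ac (red) tags per 10000000 plus 1 (log axis) in each C57 library over time, circles for replicate 1 and squares for replicate 2, at the constitutive sites with the largest H3K27ac rises (upper row) and falls (lower row) at 24 h. At the site -63796 bp from Otos, EGR2 is 93.2 and 96.7 at basal where H3K27ac is 3.39 and 2.85.

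The 64 regions that rose had little H3K27ac at basal although EGR2 was listed there. They were called by a rise over these same basal H3K27ac libraries, so their low basal level is partly set by that choice. Of the 64, 53 had a basal mean under 16 tags, and the group medians were 5.93 at basal and 64.2 at 24 h. EGR2 tags at these sites had basal medians of 71.4 and 69.2, which is 1.07 and 0.790 of the member medians in the same libraries. PU.1 differed: 28.1% (17.6 to 40.8%) were in the basal PU.1 list against 70.2% (69.1 to 71.3%) of sites at regions not called, and 84.4% (73.1 to 92.2%) against 72.1% (71.0 to 73.2%) in the 24 h list. The 117 regions higher at 6 h had the same features, with 27.4% (19.5 to 36.4%) of sites in the basal and 78.6% (70.1 to 85.7%) in the 24 h PU.1 list. STAT6 was listed at 24 h at 93.8% of the 64 sites and 68.2% of those not called. Place differed too, with 10.9% of the 64 sites and 54.1% of those not called within 1 kb of a start. Among all constitutive sites over 1 kb from a start, 73.3% were in the basal PU.1 list, 82.2% in the 24 h PU.1 list and 83.3% in the 24 h STAT6 list, so the 24 h PU.1 share of the 64 was near that of members in the same place. Sites not called were not matched for basal H3K27ac, and the part of place or of basal H3K27ac in these shares was not tested.

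Pol II changed at few member regions. By limma 23 were higher and 12 lower at 6 h (0.348% and 0.182%, beside 0.428% and 0.137% of all regions), and 39 higher and 8 lower at 24 h (0.591% and 0.121%, beside 0.503% and 0.174%). For 6 h, edgeR on recovered reads called 46 higher and 10 lower (0.735% and 0.135% of all regions) and DESeq2 89 and 62 (1.25% and 0.8%). For 24 h, edgeR called 57 and 12 (0.75% and 0.199%) and DESeq2 102 and 42 (1.35% and 0.605%). The number of limma calls depended on single libraries. At 24 h it was 3 or 12 when 24 h replicate 1 or 2 was dropped, 120 when basal replicate 1 was dropped, and 21, 17 and 13 for basal replicates 2, 3 and 4. At 6 h it was 0 or 1 when 6 h replicate 1 or 2 was dropped, 209 for basal replicate 1, and 11, 11 and 8 for the other basal replicates. The 1 h group had 1 library, so no count of calls is given for it. Of the 64 regions with higher H3K27ac at 24 h, 20 were also higher in Pol II (31.2% of the 64 and 51.3% of the 39). Over all regions 183 were higher in both, which is 20.8% of the 878 higher in H3K27ac and 46.7% of those higher in Pol II.

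At the Otos region Pol II was 2.5, 2.41, 0.54 and 0 tags in the 4 basal libraries and 43.4, 13.2 and 24.4 at 24 h (log2 change 3.6 ± 0.54, limma adjusted p = 0.0042). Near Inpp5a (-38307 bp), which encodes an inositol phosphatase, it was at most 3.12 at basal and 20.7, 14.1 and 28.2 at 24 h (3.53 ± 0.51, limma adjusted p = 0.00321). In Ankrd55 (5292 bp) it was at most 2.41 and then 29.4, 18.7 and 21.8 (3.29 ± 0.45, limma adjusted p = 0.00184). Falls were called near Xirp1 (-19783 bp; basal mean 47.2, 24 h mean 8.49, limma adjusted p = 0.0226), in Ppcdc (69.6 and 14, adjusted p = 0.00732) and at the start of Icosl, a costimulatory ligand gene (42.3 and 9.43, adjusted p = 0.0342). The Otos and Ppcdc calls were lost in 1 of 10 fits that left out a library, without 24 h replicate 1 (limma adjusted p = 0.0676 and 0.0529). The Xirp1 call held in 6 and the Icosl call in 4 of the 10.

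H3K4me2 and H3K4me3 were measured at basal and 24 h, in 6468 member regions of 67742. H3K4me2 was higher in 6 and lower in 1 by limma (0.0928% and 0.0155%, beside 0.179% and 0.0576% of all regions), with 16 and 0 under median-ratio scaling, 28 and 0 by edgeR (0.492% and 0.0118% of all) and 14 and 0 by DESeq2 (0.289% and 0.00443%). By limma 0 were left when 24 h replicate 2 was dropped and 1 when basal replicate 1 was, and dropping 24 h replicate 1 gave 15 higher and 4978 lower. The median log2 change was -0.83 at members and -0.69 over all regions, which the scaling moved to -0.18 and -0.05. The largest rise was in Galnt9 (-7914 bp; 0 and 6.33 against 23.2 and 15.4 tags, limma adjusted p = 0.00136, which edgeR gave as 0.0657), a call that held in 1 of 4 fits that left out a library (limma adjusted p = 0.661 without basal replicate 1). The intronic site in Pigp rose too, from 5.72 and 7.04 to 37.9 and 29.3 tags (2.22 ± 0.51, limma adjusted p = 0.0105). For H3K4me3 limma called 0 member regions and 0.0% of all. Of members, 2741 had an unadjusted p under 0.05, or 42.4%, against 19.5% of all regions. On recovered reads edgeR called 4 higher and 8 lower (0.131% and 0.0531% of all), and DESeq2 13 and 32 (0.211% and 0.205%). The median log2 change was -0.27 at members and 0.11 over all regions. Against all regions of the same place the gap was narrower, -0.33 against -0.30 within 1 kb of a start and 0.24 against 0.33 farther away. The shares with an unadjusted p under 0.05 by limma were 62.1% against 44.6% within 1 kb and 19.5% against 11.8% farther away. For H3K4me2 the medians by place were -0.89 against -0.90 within 1 kb and -0.70 against -0.56 farther away.

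At the named promoters few changes passed the test. The start shared by Nemp1 and Nab2 had 436 and 461 H3K27ac tags at basal and 162 and 89.5 at 1 h (-1.88 ± 0.58, limma adjusted p = 0.0463). Tnf had 251 and 117 against 47.2 and 34.4 (-2.06 ± 0.58, limma adjusted p = 0.035), and Cdk4 300 and 221 against 107 and 47.2 (-1.84 ± 0.57, adjusted p = 0.0485). These 3 starts had no call at 6 or 24 h. Over all regions within 1 kb of a start the median 1 h change was -0.99, and the 3 calls are given in the deposited scale alone. Ptgs1 had 5.43 and 63.5 at basal and 187 and 120 at 6 h (2.89 ± 0.79, limma adjusted p = 0.0401). At the Socs1 site with the highest ratio H3K27ac was 309 and 117 at basal and 811 and 510 at 24 h, which did not pass (1.75 ± 0.69, limma adjusted p = 0.207).

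By list, few member regions at starts passed at 24 h. IL-4 receptor and JAK-STAT genes had 2 of 10 regions higher in H3K27ac and 0 lower, alternative activation genes 1 of 6 higher and cell cycle genes 1 of 10 lower, while the other 8 lists had 0. Over all regions within 1 kb of a start, 0.309% were higher and 0.187% lower. These are few regions, in lists chosen with earlier results of these data known. Regions at alternative activation genes had the highest median log2 change, 1.89 over 6 regions, against -0.50 over all member regions. Only 3 genes of this list had a site within 1 kb. In Pol II 2 of the 6 regions were higher, beside 0.503% of all regions. KLF and SP factors had a median of -0.82 over 14 regions with 0 called, and AP-1 and immediate early genes -0.57 over 16 with 0 called.

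In the other strains, member regions matched within 500 bp had a median 24 h to basal log2 ratio of H3K27ac of -0.20 in BALB, -0.21 in NOD, -0.16 in PWK and -0.09 in SPRET, against -0.50 in C57. The medians over all regions of those tables were -0.26, -0.22, -0.17, -0.07 and -0.28. Members lay close to all regions in 4 strains and lower in C57, a difference between strains that was not tested. In the C57 time course regions the medians by place were -0.61 at members against -0.55 over all regions within 1 kb of a start. Farther away they were -0.24 against -0.07. The other strains were not split by place. The basal H3K27ac medians of members in BALB, NOD, PWK and SPRET were 114, 112, 120 and 136 tags, against 117 in C57.

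The Egr2 genotype tables hold 4677 sites that the authors listed as induced by 24 h of IL-4, and 21 of these were constitutive by the rule used here, 6 of them within 1 kb of a start. They are not typical members, with a median 24 h to basal log2 ratio of EGR2 of 1.15 against 0.52 over all members. In IL-4-treated cells, H3K27ac was lower in LyzM-Cre Egr2 fl/fl than in Egr2 fl/fl at 5 of the 21 and higher at 0 by limma, beside 23.2% lower and 1.41% higher among all sites. IL-4 raised H3K27ac at 8 and lowered it at 1 in Egr2 fl/fl (25.6% and 2.54% of all sites), and raised it at 4 and lowered it at 1 in LyzM-Cre Egr2 fl/fl (14.4% and 4.08%). In the same comparison of genotypes after IL-4, PU.1 was lower at 3 (9.36% of all sites), H3K4me2 at 2 (8.94%) and C/EBPβ at 1 (8.25%), and STAT6 and PPARγ at 0 (0.0214% and 0.0%), each with 0 higher. The interaction of genotype and IL-4 was called by limma at 0 of the 21 for each of the 6 targets (at most 0.0428% of all sites). For H3K27ac 5 of the 21 had an unadjusted interaction p under 0.05, beside 13.1% of all sites.

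The intronic site in Rps6kc1 had 63.3 and 59.1 H3K27ac tags after IL-4 in Egr2 fl/fl and 12.5 and 8.13 in LyzM-Cre Egr2 fl/fl, and 16.2 and 5.43 and 7.02 and 8.41 at basal (24 h genotype difference -2.49 ± 0.46, limma adjusted p = 0.00139). Near the start of Rgcc (567 bp), a cell cycle regulator gene, it was 129 and 101 against 27 and 30.2 after IL-4 (-1.96 ± 0.33, limma adjusted p = 0.000674). At Gatad2a (33209 bp), which encodes a NuRD complex subunit, it was 55.3 and 70.7 against 13.5 and 5.22 (-2.74 ± 0.45, limma adjusted p = 0.000607). Each of these calls held in 8 of 8 fits that left out 1 library. The site at Rtn4ip1 (24998 bp) was lower in PU.1, with 50.6 and 44.5 against 7.80 and 5.05 tags (-2.73 ± 0.39, limma adjusted p = 0.002, called in 6 of 8 fits), and in C/EBPβ, with 21.8 and 14.6 against 1.36 and 0 (-3.62 ± 1.02, adjusted p = 0.0183, called in 5 of 8 such fits). Between genotypes at 24 h, 4 of the 21 had an unadjusted p under 0.05 in STAT6 and 5 in PPARγ, beside 15% and 14.3% of all sites.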

How the data were processed

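ChIP-seq values of 86 libraries were used. The deposited signal values are tags that the authors counted with HOMER on Bowtie2 alignments to mm10 and scaled to 10000000 tags per library, in 1000 bp around the centres of open chromatin regions for the marks, within the peak for EGR2 and in 300 bp for the factors of the genotype tables. The deposited peak lists carry a score, and the authors made them by calling HOMER peaks in each replicate and keeping those that passed IDR over the pair. Peaks for STAT6, PPARγ and EGR2 came from cells crosslinked with DSG and formaldehyde. Reads of the other strains had been aligned to their own genomes and shifted to mm10 with MMARGE. A further 4 columns of values could not be tied to a sample by the labels and were not used.

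Depth was between 5728050 and 29050468 tags per library, which makes 1 normalized tag equal to 0.573 to 2.91 reads. The 57 replicate pairs, with some C57 pairs entering again over another set of regions, differed by more than counting noise (chi-square per degree of freedom 1.41 to 17.3), so none was taken for a library deposited again. In the histone and Pol II tables all of the 2690288 values (100%) came out as whole reads within 0.1 read. In the EGR2 and genotype tables values were rounded to reads for the chi-square of replicate pairs alone, and no count test was run there.

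Lists were compared by an overlap of at least 1 bp, and shares carry exact (Clopper-Pearson) 95% intervals, which cover counting error only, over sites. Sites were matched to a region whose centre lay within 500 bp. Gene starts were those of protein-coding transcripts in the GENCODE annotation of mm10, and sequences were read from the mm10 genome. Not every stretch read is reported here. Marks were compared with limma 3.58.1 in R 4.3.3 (lmFit, eBayes with trend) on log2(tags + 1) over all regions of a table with all time groups in the fit, and called at a Benjamini-Hochberg adjusted p under 0.05. A fold change on this scale understates changes at low tags. edgeR 4.0.16 (quasi-likelihood) and DESeq2 1.42.0 on the recovered reads, a pseudocount of 5, filters of 16 and 8 tags, median-ratio scaling, a match within 200 bp, a replicate block and fits without each library were alternatives. Scripts were tested on simulated data, and used Python 3.11.15, pandas 2.3.3, numpy 2.4.6, scipy 1.17.1, pysam 0.24.0 and matplotlib 3.10.9.

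Named sites were those with the 6 highest mean EGR2 tags, the 3 highest and 3 lowest ratios of 24 h to basal, up to 2 per gene list within 1 kb of a start, those nearest EGR and NAB genes, and the regions with the largest called changes per mark and time (by a rule of 2.5-fold with at least 16 tags, 8 for Pol II, where limma called too few). The members and the gene and marker lists were chosen with earlier results of these data known.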

Additional observations from a re-analysis of the deposited data

How the results depend on the processing

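Across 28 named regions and 387 alternative fits, 333 kept direction and call, 48 lost the call, 6 gained it and 0 turned direction. Of the values that answer a comparison, 67 stayed within 1.5 times or 1 interval of the value reported and 73 moved. Counts of member regions called by limma were 699 for H3K27ac at 1 h, 201 at 6 h and 73 at 24 h, 35 and 47 for Pol II at 6 and 24 h, 7 for H3K4me2, 0 for H3K4me3 and 31 over the genotype contrasts. edgeR gave 123 for H3K27ac at 1 h, 126 at 24 h, 56 for Pol II at 6 h, 28 for H3K4me2 and 12 for H3K4me3. DESeq2 gave 372, 479 and 329 for H3K27ac at 1, 6 and 24 h, 151 and 144 for Pol II, 14 for H3K4me2 and 45 for H3K4me3. Median-ratio scaling gave 173 at 1 h and 110 at 24 h for H3K27ac and 16 for H3K4me2, and the filter of 16 tags 1099 at 1 h. A replicate block gave 2275, 634 and 427 for H3K27ac, 81 and 176 for Pol II, 27 for H3K4me2, 2766 for H3K4me3 (306 higher and 2460 lower, where limma without the block called 0) and 56 for the genotype contrasts. Same-numbered libraries had correlations of deviations of 0.014 to 0.452 for H3K27ac, -0.006 to 0.251 for Pol II, 0.287 for H3K4me2 and 0.25 for H3K4me3, and the labels tie them by number alone. The cause of these moves was not tested.

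Leaving out 1 library gave 6 (without basal replicate 2) to 3736 (without 1 h replicate 1) for H3K27ac at 1 h, 3 (without either 6 h library) to 523 (without 1 h replicate 1) at 6 h and 19 (without 24 h replicate 2) to 374 (without 1 h replicate 1) at 24 h. For Pol II the range was 0 (6 h replicate 1 left out) to 209 (basal replicate 1) at 6 h and 3 (24 h replicate 1) to 120 (basal replicate 1) at 24 h. For H3K4me2 it was 0 (without 24 h replicate 2) to 4993 (without 24 h replicate 1), for H3K4me3 0 in each fit, and 13 (without Egr2 fl/fl 24 h replicate 2, 18 without replicate 1) to 30 for the genotype contrasts. Where an arm kept 1 library, it is assumed to vary like the others.

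The number of constitutive sites was 3554 when each list kept only its higher-scoring peaks (the top 50%). The median log2 EGR2 ratio was -1.2 to 0.02 at 1 h, 0.03 to 0.46 at 6 h and 0.21 to 0.76 at 24 h without 1 library, and -0.13 at 24 h with median-ratio scaling. The share with a basal PU.1 peak was 56.4% when 50% of the peak had to overlap, 48.6% with the top 50% of the PU.1 list, 64.3% within 1 kb of a start and 73.3% farther away. With the stricter overlap the basal shares were 95.2% in BALB, 93% in NOD, 46.9% in PWK and 70.3% in SPRET. Within 500 bp and 2000 bp of a start lay 47.3% and 57.1% of sites, and 4.01% and 65.8% of whole peaks held the full site and the inner letters. With 2 libraries in most groups, depth limits calls at regions with few tags.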
